A study of Mus musculus with 6 samples.

Results

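The vitamin D receptor gene Vdr, its 3 RXR partner genes (Rxra, Rxrb and Rxrg), 3 vitamin D hydroxylase genes (Cyp24a1, Cyp27b1 and Cyp2r1) and 3 genes listed as direct targets of the receptor (Trpv6, Igfbp3 and Txnip) were followed in mouse embryonic stem cells given the hormone. These 10 genes, a set put together with earlier results of these data known, were taken by name from tables of 62490 loci that carry 49415 gene names, and each was found at 1 locus. The cells were blastocyst-derived, of strain C57BL/6J and of genotype Mll1fl/fl; Cre-ER TM in every group: the Mll1 gene is flanked by recombination sites and the labels name no agent that would switch on the Cre recombinase. One group was untreated, one received VD3 (1α,25-dihydroxyvitamin D3, the active hormone) at 1 µM for 5 days, and one received, also for 5 days, that dose of VD3 and 100 µM MM-401, which blocks the activity of the histone methyltransferase MLL1. All cells were grown with leukemia inhibitory factor on mouse fibroblast feeder cells, in 15% serum or 20% serum replacement. No group had MM-401 alone. Each group had 2 libraries, but the tables hold 1 pooled value per group, so a difference between groups was not set against the spread between libraries, no test across libraries was made and no p-value is given. The untreated column and the combination column carry names that the labels explain only in part, and every value below rests on that match.

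The receptor encoded by Vdr is a nuclear receptor that binds the active hormone and, as a heterodimer with a retinoid X receptor (RXR), attaches to vitamin D response elements, which are direct repeats of a short half-site separated by a spacer of 3 bases (DR3). Vitamin D is activated in steps: Cyp2r1 encodes a 25-hydroxylase that makes the circulating form, Cyp27b1 encodes the 1α-hydroxylase that makes the hormone, and Cyp24a1 encodes the 24-hydroxylase that breaks it down. Cyp24a1 is the classical gene that the receptor switches on, and Trpv6, an epithelial calcium channel, is a classical intestinal target. Igfbp3 encodes a binding protein for insulin-like growth factors, and Txnip encodes a protein that binds thioredoxin and restrains glucose uptake.

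Promoter sequence from RefSeq (build GRCm38.p6) was at hand for 9 of the 10 genes, in 12 windows, with no entry for Cyp24a1. In the 250 bases before the transcript start none of the 12 windows held the DR3 consensus in either strand, a match that only 13 of 32851 such windows (0.0396%) held. Of the single half-sites searched on both strands, AGGTCA was in 14% of all windows, GGGTCA in 11.6% and GGTTCA in 8.85%. Among the members, Trpv6 and the internal start of Rxra held AGGTCA at 2 places each, a count of at least 2 that 1.36% of all windows reached. Igfbp3, Txnip, Vdr, Rxrb and Cyp27b1 held none of the 3 half-sites. The windows of Trpv6 and of the internal Rxra start are shown for their half-sites, and that of Igfbp3 as a GC-rich window (73.2% GC, against a median of 52.4%) without one. Each is written 5′ to 3′ on the gene's strand, and capitals mark half-sites on either strand.
Rxra, chr2:27709042-27709291, plus strand, within the gene, before the start at 27709292: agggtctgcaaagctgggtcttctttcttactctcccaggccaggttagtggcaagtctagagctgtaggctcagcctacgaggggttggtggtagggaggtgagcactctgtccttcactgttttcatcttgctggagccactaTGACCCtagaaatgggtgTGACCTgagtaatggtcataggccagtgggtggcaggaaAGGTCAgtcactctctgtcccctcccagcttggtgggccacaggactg
Trpv6, chr6:41636406-41636655, minus strand: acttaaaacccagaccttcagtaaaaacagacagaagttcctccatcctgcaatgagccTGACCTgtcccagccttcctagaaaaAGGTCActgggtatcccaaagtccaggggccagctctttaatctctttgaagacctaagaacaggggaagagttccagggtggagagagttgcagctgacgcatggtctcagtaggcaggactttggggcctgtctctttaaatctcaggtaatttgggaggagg
Igfbp3, chr11:7213924-7214173, minus strand: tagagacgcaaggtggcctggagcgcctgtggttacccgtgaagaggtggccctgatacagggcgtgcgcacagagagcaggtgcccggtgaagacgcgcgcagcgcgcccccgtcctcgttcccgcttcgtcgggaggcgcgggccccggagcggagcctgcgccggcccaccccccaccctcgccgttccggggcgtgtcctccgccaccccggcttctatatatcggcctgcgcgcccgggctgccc
These matches describe the letters of the windows. No binding was measured in these samples.

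Values below are given first for untreated cells, then for VD3, then for VD3 plus MM-401, and the pools held 6.23e+07, 7.36e+07 and 7.35e+07 estimated counts. Levels are FPKM, which are fragments scaled for transcript length and library size and can be compared between genes, each with the authors' lower and upper bound, called the interval. Of 10 embryonic stem cell markers, 10 were above 1 FPKM in every pool. Of 18 fibroblast markers for the feeder cells, 9 were below 1 FPKM in every pool, among them Col1a1, Col1a2, Dcn and Lum (0 in every pool). In the 3 pools 8, 8 and 7 of the 18 were above 1 FPKM. The highest were Sparc at 394, 575 and 471 FPKM and Fn1 at 136, 115 and 101. Kmt2a, which encodes MLL1, was at 14.9, 11.6 and 17.0 FPKM with overlapping intervals. Macrophage markers were below 1 FPKM for 5 of 6 genes and endothelial markers for 2 of 5.

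**Figure D1:**
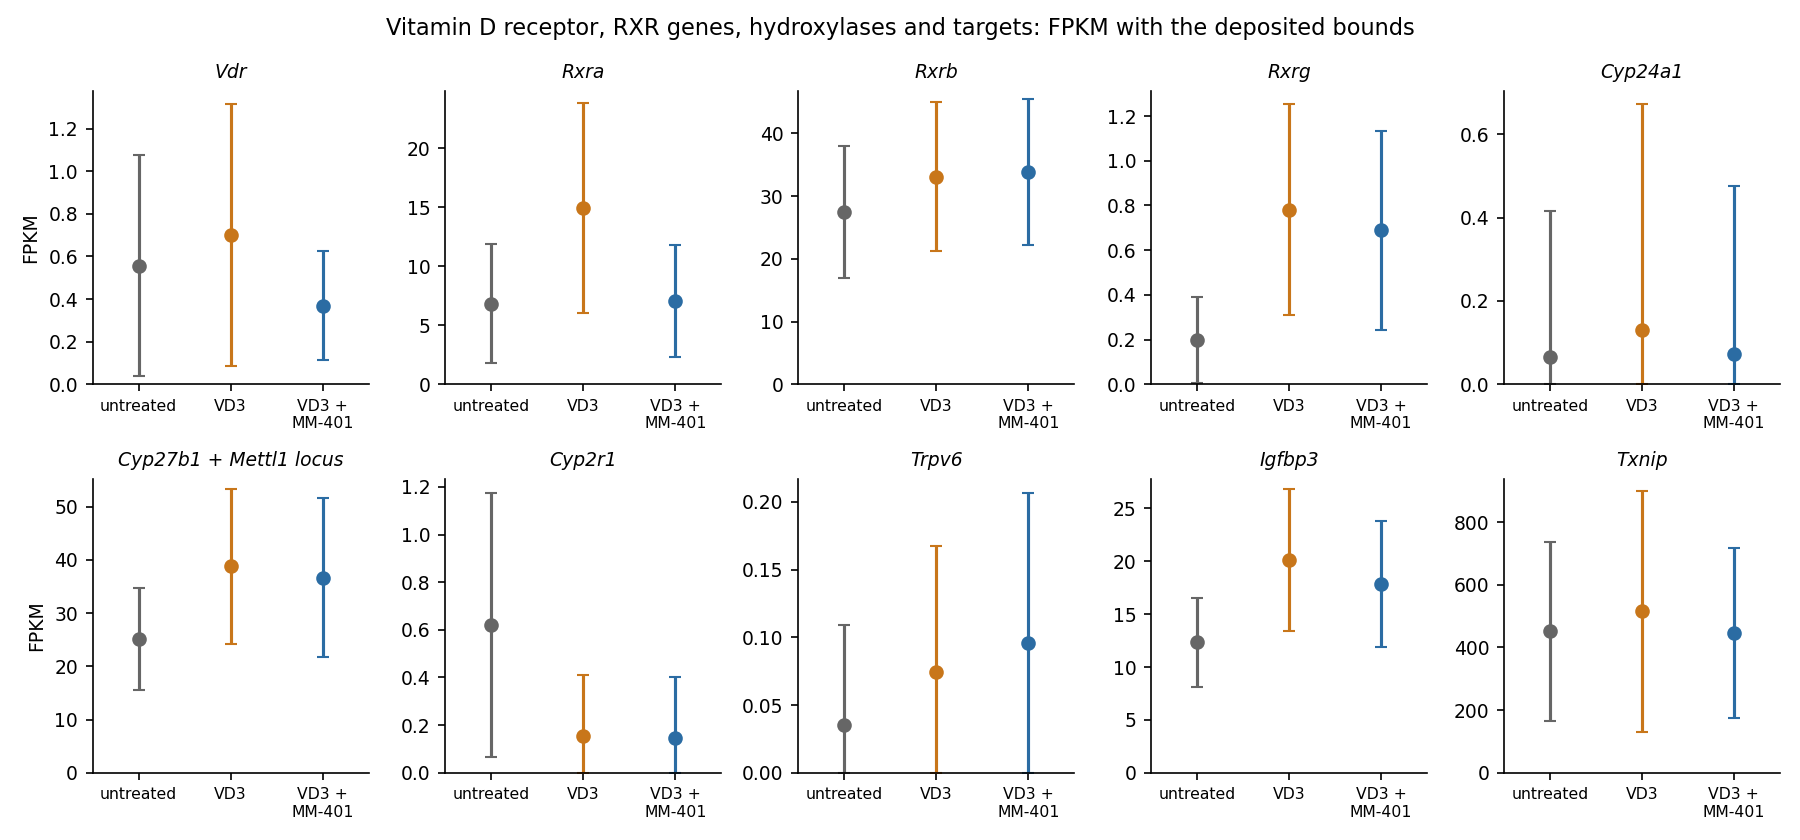
FPKM of each of the 10 members in the 3 pools (points) with the authors' lower and upper bounds (bars); each panel has its own linear axis from 0. The bars of the 3 pools overlap in all 10 panels, and the panels of Vdr, Rxrg, Cyp24a1, Cyp2r1 and Trpv6 reach no higher than 1.32 FPKM, the upper bound of Vdr with VD3.

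The receptor itself was present at a low level, with Rxra and Rxrb far above it and Rxrg at a level as low as its own. Vdr (chromosome 15, 97854425 to 97910630, minus strand) stood at 0.556 FPKM in untreated cells (interval 0.0367 to 1.08), 0.701 with VD3 (0.0857 to 1.32) and 0.370 with VD3 plus MM-401 (0.112 to 0.627). All 3 intervals overlapped. Behind these levels were 97.5, 126 and 97.4 estimated counts, with a standard deviation (SD) from the deposited variances of 29.0, 34.2 and 28.3. The combination pool thus matched the untreated pool by count, at a ratio of 0.998, while its FPKM was 0.665 of the untreated value. Vdr was above 32.6%, 33.7% and 24.6% of the gene names with a value above 0.

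Rxrb and Rxra made up nearly all RXR transcript. Rxrb (chromosome 17, 34031812 to 34038399, plus strand) was the most abundant RXR gene in each pool, at 27.5 FPKM (16.9 to 38.0), 33.1 (21.2 to 44.9) and 33.8 (22.2 to 45.4). Its 3 intervals overlapped. Rxra (chromosome 2, 27676440 to 27762957, plus strand) was at 6.81 FPKM (1.78 to 11.9) in untreated cells, 14.9 (6.02 to 23.8) with VD3 and 7.08 (2.32 to 11.8) with both agents. The VD3 pool was the high one, and its interval overlapped those of both other pools. Rxrg (chromosome 1, 167598384 to 167639623, plus strand) was at 0.199 (0.00689 to 0.391), 0.781 (0.309 to 1.25) and 0.689 FPKM (0.244 to 1.13). Its untreated value was the lowest of the 3 by level and by count (26.7, 94.4 and 74.4 counts), with the interval reaching just into those of the treated pools.

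As a share of summed RXR FPKM, Rxra took 19.8%, 30.6% and 17.0%, Rxrb 79.7%, 67.8% and 81.3%, and Rxrg 0.577%, 1.60% and 1.66%. Summed RXR FPKM was 62.0, 69.6 and 112 times that of Vdr. The last ratio rests in large part on the Vdr FPKM, 0.370 with both agents against 0.556 untreated. The intervals of these 2 values overlapped, and the Vdr counts were 97.4 and 97.5. Vdr was also low beside the other receptors that pair with RXR. Among 16 such receptor genes it ranked 8, 8 and 9 by FPKM. Nr1h2, the liver X receptor beta, was at 135, 168 and 138 FPKM, and Rarg, the retinoic acid receptor gamma, at 106, 177 and 125. Rara, the retinoic acid receptor alpha, was at 26.3, 34.6 and 32.5 FPKM.

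**Figure D2:**
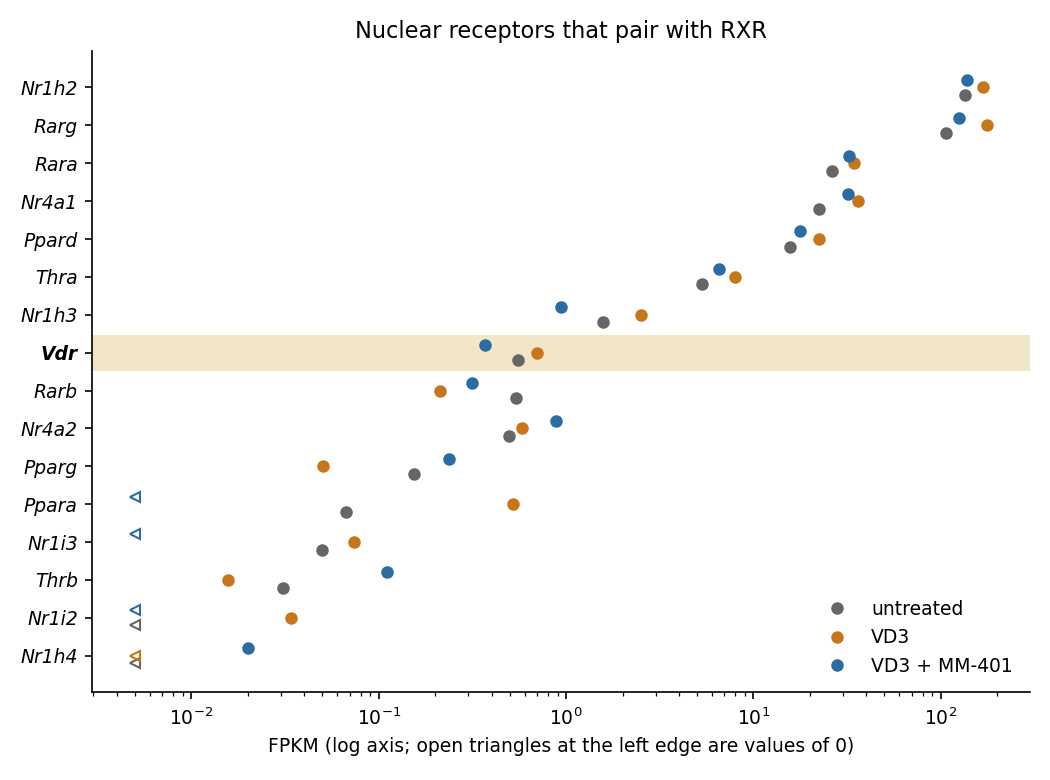
FPKM (log axis) of Vdr and 15 other nuclear receptor genes whose products pair with RXR, in the 3 pools, in order of the untreated level; open triangles mark values of 0. Vdr (shaded) lies below 1 FPKM in every pool, while Nr1h2 and Rarg lie above 100.

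Of the hydroxylase genes, Cyp24a1 was near the limit of measurement in every pool, and the count of Cyp2r1 was low in both treated pools. Cyp24a1 (chromosome 2, 170482708 to 170497145, minus strand) was at 0.0662 FPKM (0 to 0.417) in untreated cells, 0.129 (0 to 0.672) with VD3 and 0.0719 (0 to 0.476) with both agents. Every interval started at 0. Its estimated counts of 15.7, 30.6 and 17.0 had SDs of 41.4, 64.1 and 47.8, larger than the counts themselves. The gene overlaps Pfdn4, a prefoldin subunit gene on the opposite strand, which was at 168, 220 and 263 FPKM, and the sources used here do not say whether the counting used strand. At this precision no difference of Cyp24a1 between pools was detectable. The authors' upper bound with VD3 was 0.672 FPKM, and the level of that bound is not stated, so it is not a firm ceiling.

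Cyp2r1 (chromosome 7, 114549682 to 114562972, minus strand) was at 0.620 FPKM (0.0649 to 1.17), 0.154 (0 to 0.409) and 0.145 (0 to 0.401). The untreated pool was the high one, and the intervals overlapped. Its estimated counts were 44.6 ± 17.6, 7.58 ± 7.94 and 7.08 ± 6.75 (SD from the deposited variances). The log2 ratio of counts was -2.56 ± 1.62 with VD3 and -2.66 ± 1.49 with both agents. The Cyp2r1 transcript has a GC content of 38.4%. The 298 protein-coding genes within 1 percentage point of it had a median log2 count ratio of -1.75 with VD3, and 17.8% of them lay below Cyp2r1. With both agents that median was -1.27 over 297 genes. The part of GC content in the low values was not tested further.

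No level can be given for Cyp27b1 alone. The gene (chromosome 10, 127048250 to 127053006, plus strand) lies 1884 bases downstream of Mettl1, a tRNA methyltransferase gene, and the tables hold both as 1 locus. This locus was at 25.1 FPKM (15.6 to 34.7), 38.8 (24.2 to 53.3) and 36.6 (21.7 to 51.6), with overlapping intervals. How much of it came from either gene is not given.

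The 3 genes listed as targets ranged from near 0 to among the most abundant transcripts. Trpv6 (chromosome 6, 41620624 to 41636405, minus strand) was at 0.0354 FPKM (0 to 0.109), 0.0748 (0 to 0.167) and 0.0958 (0 to 0.207). It rested on 5.98, 14.3 and 18.4 estimated counts, with SDs of 6.30, 8.82 and 11.0, so an order between the pools could not be read. Its close relative Trpv5, also an epithelial calcium channel gene, was at 0.0792, 0.246 and 0.294 FPKM.

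Igfbp3 (chromosome 11, 7206086 to 7213923, minus strand) was at 12.3 FPKM (8.11 to 16.6) in untreated cells, 20.1 (13.4 to 26.8) with VD3 and 17.8 (11.9 to 23.8) with both agents. Both treated values lay above the upper bound of the untreated pool, but the intervals overlapped. By count the ratios to untreated were 1.64 and 1.45, close to the FPKM ratios of 1.63 and 1.45. The summed FPKM of the 18 fibroblast markers was 552, 721 and 594, most of it from Sparc and Fn1, which are not specific to fibroblasts, while Col1a1 stayed below 1 FPKM. By FPKM 9 of the 18 were higher than untreated with VD3 and 6 with both agents. Only the locus of Col3a1 had intervals apart, lower with both agents than in either other pool (4.19, 3.93 and 0.553 FPKM). Its estimated counts of 13.8, 10.7 and 23.3 were instead highest with both agents. The part of feeder cells in the Igfbp3 values was not tested, and in pooled RNA fewer cells of a type and less RNA per cell cannot be told apart.

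Txnip (chromosome 3, 96557957 to 96561883, plus strand) was at 452 FPKM (166 to 737), 515 (131 to 899) and 447 (175 to 719), above 99.1%, 98.8% and 98.0% of the names with a value above 0. Its wide intervals overlapped. It overlaps Gm15441, an antisense gene listed separately at 0.957, 1.90 and 2.09 FPKM with upper bounds of 11.7, 19.3 and 16.7. By count the ratio of Txnip to untreated was 1.36 with VD3 and 0.954 with both agents.

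In order of level, Txnip led in every pool, followed by Rxrb and the Cyp27b1 and Mettl1 locus, then Igfbp3 and Rxra, with the other 5 genes below 1 FPKM. Txnip stood apart from the next gene in every pool, as did Rxra from the highest of the low genes. Among the 9 neighbouring pairs of the order, the intervals overlapped for 7, 7 and 6. The exception in the combination pool was Igfbp3 over Rxra (lower bound 11.9 against upper bound 11.8), a pair that overlapped in the untreated and VD3 pools.

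The first comparison set VD3 against untreated cells. A gene was called where the log2 ratio of FPKM + 1 was at least 1 (2-fold), the authors' intervals did not overlap and the higher pool had at least 5 FPKM. Of the 10 members, 5 passed the filter of 5 FPKM (Rxra, Rxrb, Igfbp3, Txnip and the Cyp27b1 and Mettl1 locus) and 0 were called, where 5.14% of 10910 names were. With the fold alone, Rxra passed, at a log2 difference of 1.03, as did 3.54% of names in the upward direction. Of the 15 other receptors that pair with RXR, 6 passed the filter and 0 were called in any of the 3 comparisons. With intervals apart alone, among names of at least 10 counts, 0 of 10 members passed, where 3.67% of 19301 names did. By FPKM 9 of 10 members were higher with VD3 and Cyp2r1 was lower, beside 63.7% of the 19301 names that were higher. The median log2 count ratio of the 10 members was 0.72, beside 0.29 over all names of that size. Both the count of 9 and this median include Cyp24a1 and Trpv6, whose directions could not be read at their precision.

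**Figure D3:**
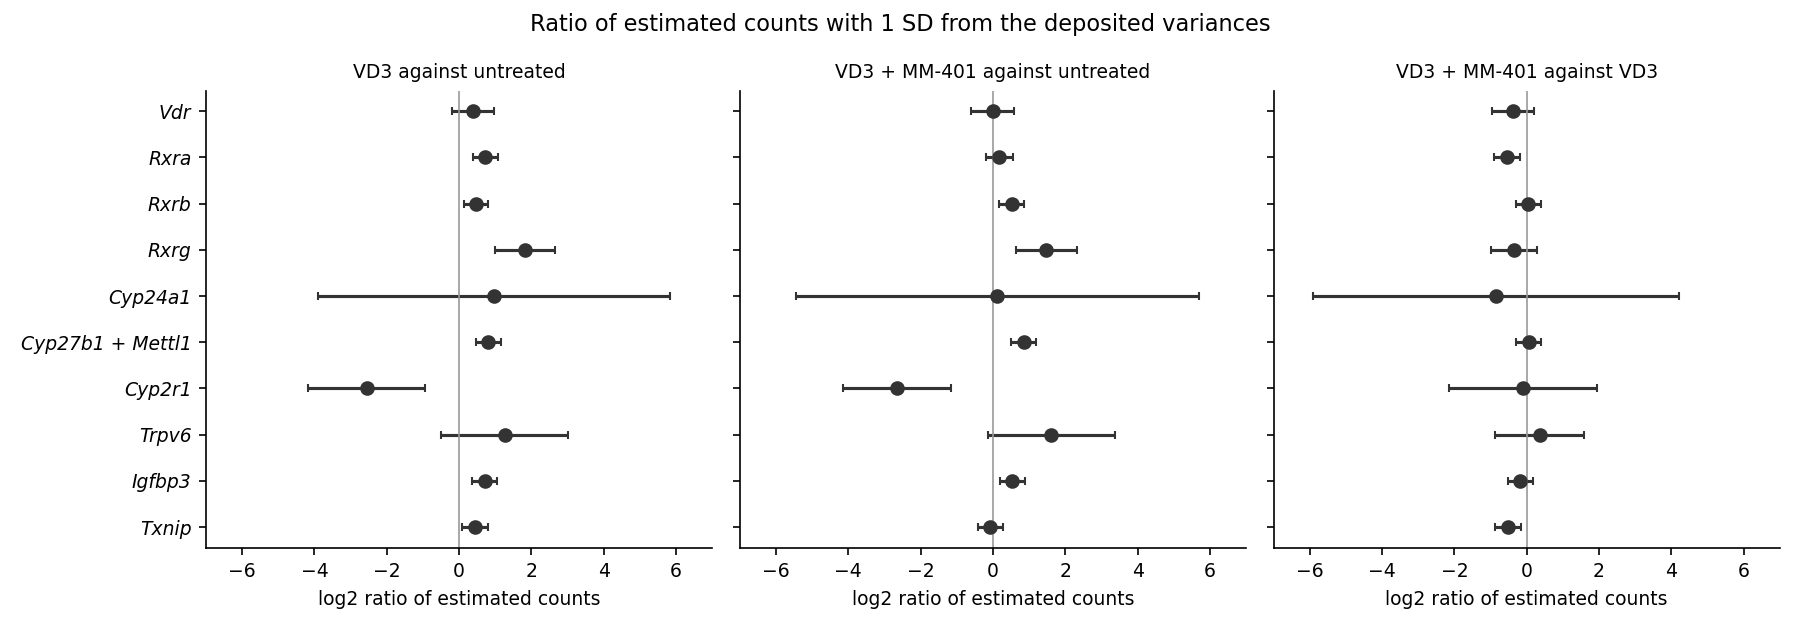
Log2 ratio of estimated counts of each member in the 3 comparisons (points) with 1 SD computed from the authors' deposited variances (bars); the vertical line marks equal counts. Cyp24a1 has the widest bars, Rxrg lies to the right and Cyp2r1 to the left of the line in both comparisons with untreated cells, which share the untreated pool.

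On the FPKM scale Rxra had the largest difference with VD3 of the 5 members that passed the filter, but on the count scale it did not. Its FPKM was 2.19 times the untreated value and its count 1.66 times, a log2 count ratio of 0.73 ± 0.36 (SD from the deposited variances). The log2 count ratio of the Cyp27b1 and Mettl1 locus was 0.80 ± 0.34, and that of Igfbp3 was 0.71 ± 0.34. The log2 count ratios of Rxra, this locus, Igfbp3 and Rxrg lay more than 2 SD from equal counts. Equal counts are not the middle of these data, since the median over all names was itself 0.29. The share of all names past that limit was not computed, so the limit does not set these members apart from other genes. For Rxra the FPKM per count was 1.32 times that of untreated cells, so part of its FPKM ratio was not in the counts. On the FPKM scale 96.9% of all tested names, and 96.6% of 762 protein-coding genes of like GC content (57.0% ± 1 percentage point), had a lower difference. On the count scale 77.5% of 1230 genes of like GC content lay below it. The median tested gene was itself 0.36 higher with VD3 on the log2 scale, and relative to it Rxra differed by 0.66, Igfbp3 by 0.30, Rxrb by -0.10 and Txnip by -0.18, so the sign of the last 2 depends on the scaling.

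The low members cannot be read from FPKM + 1, which compresses small values. By count the log2 ratio to untreated was 1.82 ± 0.82 for Rxrg, 0.37 ± 0.58 for Vdr, 1.26 ± 1.76 for Trpv6 and 0.97 ± 4.87 for Cyp24a1. Of these, Rxrg differed from 0 by the most in units of its SD. Its ratio was above that of 98.8% of 1446 genes of like GC content, whose median was 0.50.

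The differences ran with transcript composition across the data. As a description across genes, whose values do not count as replicates, the difference with VD3 had a Spearman correlation of 0.57 with GC content over 8351 protein-coding genes, and of -0.42 with their length. After a lowess adjustment for both, the differences were 0.65 for Rxra, 0.09 for Igfbp3, -0.31 for Rxrb and -0.20 for Txnip. Igfbp3, at 0.66 before adjustment, thus lay close to genes of its own GC content and length.

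**Figure D4:**
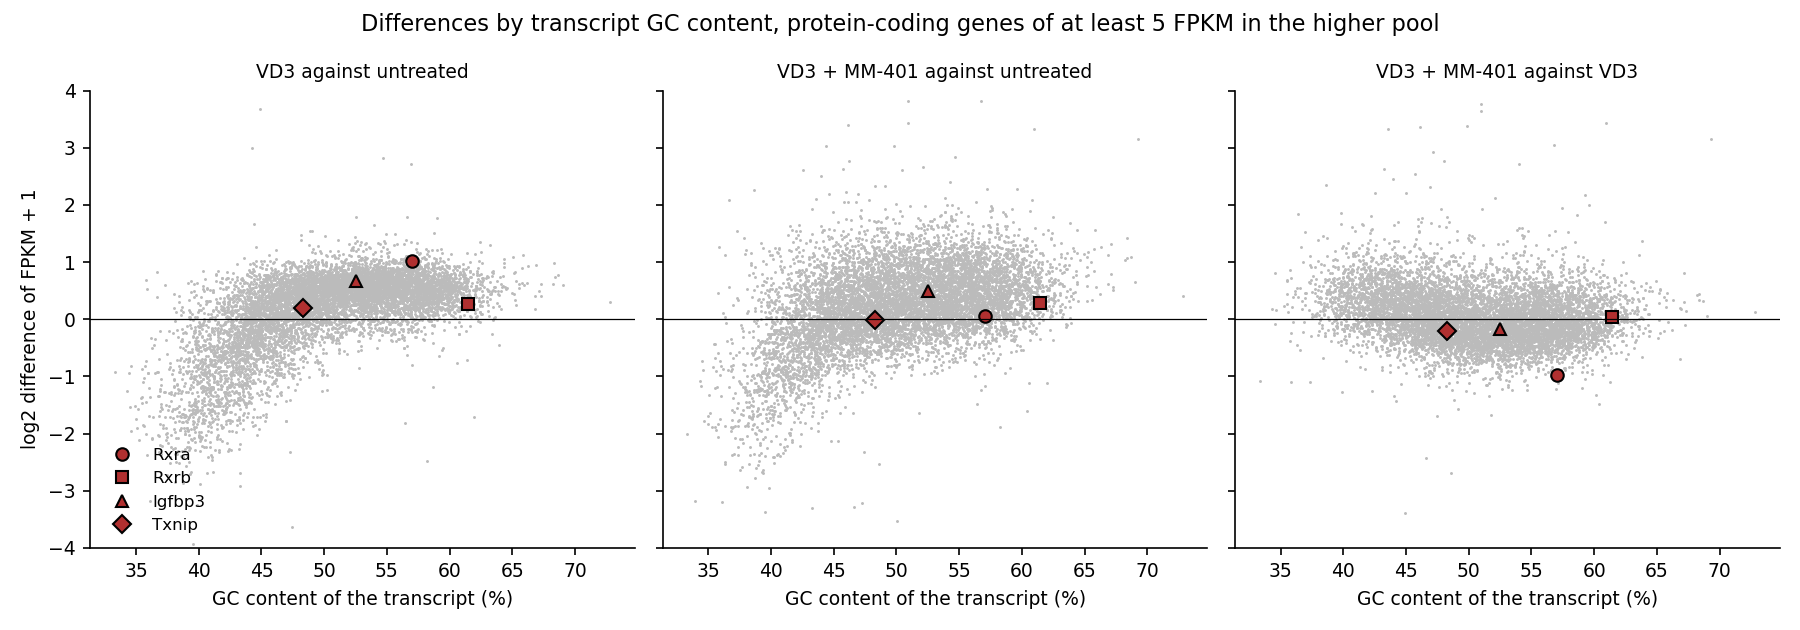
Log2 difference of FPKM + 1 against transcript GC content for protein-coding genes that passed the filter of 5 FPKM (grey) and 4 members (red symbols), in the 3 comparisons; 4, 4 and 5 genes lie outside the vertical axis. Rxra lies near the upper edge of genes of its GC content in VD3 against untreated and near the lower edge in VD3 plus MM-401 against VD3, while Rxrb, Igfbp3 and Txnip lie within the grey cloud.

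The second comparison set both agents together against untreated cells. None of the 5 members that passed the filter was called, where 6.95% of 10969 names were, and none of the 10 had intervals apart, where 4.7% of 19363 names did. None of the 5 that passed the filter reached the fold, which 13.4% of names passed upward. The log2 differences were 0.05 for Rxra, 0.29 for Rxrb, 0.50 for Igfbp3, -0.02 for Txnip and 0.53 for the Cyp27b1 and Mettl1 locus, beside a median gene of 0.27. By FPKM 7 of 10 members were higher and Vdr, Cyp2r1 and Txnip were lower, beside 58.3% of all names higher. The 7 again include Cyp24a1 and Trpv6, whose directions could not be read. The log2 count ratio of Rxrg was 1.48 ± 0.83.

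The third comparison set both agents against VD3 alone. None of the 5 members that passed the filter was called, where 1.37% of 10719 names were, and none of the 9 with at least 10 counts had intervals apart, where 0.849% of 19189 names did. Rxra had the largest difference of the members that passed the filter, at -0.98, just under the 2-fold limit. Only 2.16% of all tested names, and 0.770% of 779 genes of like GC content, had a lower difference. By count the ratio was 0.684, a log2 ratio of -0.55 ± 0.36, with 13.4% of 1228 genes of like GC content below it. The high VD3 value of Rxra enters this comparison and the one with untreated cells, so both rest on the same pool. By FPKM 8 of 10 members were lower with the inhibitor, and Rxrb and Trpv6 were higher, beside 50.6% of all names higher. The directions of Cyp24a1 and Trpv6 could not be read here either.

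Genes with a pattern over the 3 pools like that of a member were sought among protein-coding genes with at least 500 counts in every pool, by the distance between their 2 log2 differences from untreated cells, which share that pool. Nearest to Rxra were Man1b1 (39.1, 78.2 and 40.4 FPKM), Gls2 (10.6, 21.8 and 11.1) and Filip1l (452, 879 and 474), and 31 of 7743 genes lay within a distance of 0.2. The other patterns were common on this FPKM scale: 699 genes lay as near to Rxrb, 791 to Igfbp3 and 651 to Txnip. No such search was made by count, where the ratio of Rxra with VD3 was 1.66 beside 2.19 by FPKM.

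The rest of the pathway was looked at through 3 lists of vitamin D genes. In total 94 further genes of the pathway and of linked families were found, 48 of which passed the filter, and 0 were called in any of the 3 comparisons. The 48 are not vitamin D genes alone. Among them are 6 other RXR partner receptors, 3 retinoic acid targets, 4 genes of the IGF family and 9 of thioredoxin and glucose sensing. With VD3, 2 of the 48 were past the fold alone, both lower, where 8.69% of names were: Ncoa2, a coactivator of nuclear receptors, at 14.5 and 6.53 FPKM, and Ccnc, the cyclin of the Mediator kinase module, at 34.5 and 15.6, both with overlapping intervals and named for having passed. After adjustment for GC content and length the differences were -1.02 for Ncoa2 and 0.67 for Ccnc, so the sign of Ccnc depends on that adjustment. With both agents 6 of 48 were past the fold, all higher by FPKM (among them Hdac3, Gadd45a, Txn1, Txn2 and Hk2), where 13.4% of names were higher. For Hk2, a hexokinase gene, the FPKM ratio was 3.35 but the count ratio 1.16, and counts scaled to the pool total went from 419 CPM in untreated cells to 411 CPM with both agents, so its direction depends on the scale. Against VD3 3 of 48 were higher (among them Txn1 and Txn2), where 4.7% of names were, and the count ratio was 2.23 for Txn1 and 1.02 for Txn2. Of 81 genes with at least 10 counts, 1 had intervals apart with both agents, where 4.7% of 19363 names did: Cubn, the endocytic receptor cubilin, at 0.578 and 0.164 FPKM. The median difference of the 48 was 0.17, 0.08 and -0.09 in the 3 comparisons, beside 0.36, 0.27 and 0.02 for all tested names.

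Among other genes of vitamin D metabolism and uptake (9 found, 4 past the filter), the highest were Pdia3, a protein disulfide isomerase also described as a membrane binder of the hormone, at 419, 521 and 555 FPKM, Gc, the vitamin D binding protein, at 74.3, 82.7 and 100.3, and Dhcr7, which removes the precursor of vitamin D into cholesterol, at 102, 78.4 and 52.8. Their intervals overlapped between pools. Among 13 coregulators, all past the filter, Ncor1, a corepressor, was at 179, 112 and 117 FPKM. Carm1, an arginine methyltransferase coactivator, was at 107, 125 and 81.1, and Hdac3, the deacetylase of the corepressor complex, at 56.5, 96.9 and 125. The coregulators' median difference was 0.05 with VD3 and -0.39 with both agents, in each case below the median gene. Across protein-coding genes these differences had Spearman correlations of -0.42 and -0.58 with transcript length. The part of length in the coregulators' medians was not tested.

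Of 28 other genes described as targets of the receptor, 9 passed the filter and 0 were called. The transport genes S100g and Slc34a1 and the hormone gene Pth were listed at 0 in every pool, and Bglap (osteocalcin), Calb1, Fgf23 and Runx2 were below 1 FPKM. Spp1, which encodes osteopontin, shares a locus with Gm42793 that stood at 435, 424 and 500 FPKM. Gadd45a, a growth arrest and DNA damage gene, was at 118, 133 and 238, and the locus of Hif1a and Snapc1 at 75.8, 41.7 and 40.7. Cdkn1a, the cell cycle inhibitor p21 and a described target in other cells, was at 46.9, 57.4 and 53.7 FPKM. The list's median difference with VD3 was -0.04.

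On the scale of CPM (estimated counts scaled to the pool total), with bounds of 2 SD from the deposited variances in place of the authors' intervals, 0 members were called in any comparison. Of the 48 other genes of the pathway and linked families 5 were called with VD3, all lower (Ncoa2, Tbl1xr1, Atp2b1, Ccnc and the Hif1a and Snapc1 locus), where 9.32% of names were called lower. The CPM values were not adjusted for GC content and length, so the part of transcript composition in these calls was not tested. On the FPKM scale the differences of Ncoa2, Tbl1xr1, Atp2b1 and Ccnc were -1.04, -0.71, -0.41 and -1.09. After adjustment for both they were -1.02, 0.24, 0.34 and 0.67, values that cannot be set directly beside CPM. The Hif1a and Snapc1 locus had no adjusted value. With both agents 2 were called, both lower (the Hif1a and Snapc1 locus and Stra8, the latter from the list of retinoic acid targets), where 5.78% were. Against VD3 0 were called, where 0.7% of names were.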

How the data were processed

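The 6 RNA-seq libraries, 2 per group, share 1 column per group in the deposited tables. The tools named for the authors' steps, per the submitters' processing notes, are Cufflinks 2.2.1, TopHat2 2.1.1 and SAMtools 1.5, on build mm10, without order or settings. Per the file headers, the deposited tables give FPKM with lower and upper bounds (level not stated), and estimated counts with a variance, which was deposited as another value beside each count. The median SD was 17.3%, 17.3% and 18.0% of the count for names above 500 counts, and it is the authors' model, not a spread measured here between libraries.

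Loci without a valid status (14) were left out and loci of 1 name were summed. Differences are log2 ratios of FPKM with a pseudocount of 1, over all names (Python 3.11.15, pandas 2.3.3, statsmodels 0.14.6). The SD of a count ratio combines both deposited variances by the delta method. GC content and length are those of the longest protein-coding transcript in GENCODE vM21 (GRCm38), which also gave coordinates; the lowess fraction was 0.2. The scripts were tested on simulated data.

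The members and gene lists were chosen with earlier results of these data known. All members are named; of each other list, the 3 genes with the highest mean FPKM and every called gene, with further genes named after their values were seen; 1 listed gene is not reported here. A count test had been foreseen only for single libraries. Alternatives were the pseudocount, the filter, centring, counts, GC and length, the highest locus per name and the fold.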

Additional observations from a re-analysis of the deposited data

How the results depend on the processing

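None of the 10 members was called in any of the 3 comparisons, nor under a pseudocount of 0.1, no filter on low values, centring on the median gene, CPM of the estimated counts, adjustment for GC content and length (4 members tested), only the highest locus per name or a 1.5-fold limit. A call needs intervals apart, which no member had, and of these settings only CPM replaces the authors' intervals. For the members the other settings could therefore give only 0, and they add no support. Only 5 members passed the filter of 5 FPKM, which CPM kept, so the rest could not be called there either. The other genes of the pathway and linked families gave 0 calls under each of these except CPM, which gave 5 with VD3 and 2 with both agents against untreated. The cause of these calls was not tested. Of those genes with at least 10 counts, only Cubn had intervals apart. Their 0 under the other settings was thus largely fixed in the same way. The log2 difference of Rxra with VD3 moved from 1.03 to 0.47 by CPM, and against VD3 alone from -0.98 to -0.52. No paired analysis was possible because the columns are pools of the 2 libraries of a group, and leaving out a replicate could not be done for the same reason. Depth limits Cyp24a1, Trpv6, Cyp2r1, Rxrg and Vdr, with at most 30.6, 18.4, 44.6, 94.4 and 126 estimated counts.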

Other observations

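Some families beside the pathway were listed as well. Of 9 genes that respond to retinoic acid, the ligand of other RXR heterodimers, 3 passed the filter. Crabp2, a retinoic acid binding protein, was at 9.96, 18.3 and 20.8 FPKM (untreated cells first, then VD3, then both agents). Stra8, a germ cell gene, was at 70.1, 52.0 and 42.4. Cyp26a1, the retinoic acid degrading enzyme, stayed below 1 FPKM in every pool, at 0.482, 0.997 and 0.835. No interval of these 3 genes lay apart from another pool.

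Igfbp3 was not the leading gene of its family. Igfbp2 was at 155, 159 and 250 FPKM and Igf2, the growth factor, at 43.7, 47.5 and 54.3, while Igfbp1 was listed at 0 and Igf1 at 0.275, 0 and 0. Igf2r, which clears the growth factor, was at 15.5, 15.1 and 9.76. Around Txnip, its binding partner thioredoxin (Txn1) was at 371, 392 and 881 FPKM, with counts 1.05 and 2.35 times the untreated value. The mitochondrial Txn2 was at 268, 447 and 945 FPKM, where the counts were 1.60 and 1.64 times the untreated value, and Txnrd1, the thioredoxin reductase, was at 342, 382 and 280. Arrdc4, an arrestin-domain relative of Txnip, was at 14.4, 18.8 and 16.6. The intervals of all these genes overlapped between the pools.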
